A study of Mus musculus with 4 samples.

Results

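A set of 8 transcription factor genes of excitatory neurons in the cerebral cortex was compared between Atm-/- and Atm+/+ mouse brain. They are Tbr1, Fezf2, Emx1, Emx2, Bcl11a, Bcl11b, Neurod2 and Neurod6. Members were all probes whose gene symbol in the platform annotation was one of these 8 names, which gave 15 of the 45281 probes on the array and 8 of 19057 annotated genes. Total RNA of brain was hybridised to Illumina bead arrays, 2 arrays of Atm+/+ and 2 of Atm-/- mice, all of a mixed 129J x C57BL/6 background. Atm encodes a kinase of the DNA damage response that is mutated in ataxia-telangiectasia, and the series title links the work to histone H3K27 trimethylation by EZH2. Neither the Atm allele nor age, sex or dissected region is stated in the labels. Nothing in them says that the samples were taken from different mice, so the p-values reflect sample-to-sample spread that may be technical only.

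The cortex forms from the dorsal telencephalon, where the homeobox factors EMX1 and EMX2 are expressed in progenitors and EMX2 takes part in setting the positions of cortical areas. Postmitotic excitatory neurons express the basic helix-loop-helix factors NEUROD2 and NEUROD6. Layer identity is then set in part by factors that repress each other's programmes: FEZF2 and its downstream factor BCL11B (CTIP2) in the layer V neurons that project to brainstem and spinal cord, and TBR1 in the corticothalamic neurons of layer VI. BCL11A (CTIP1), a paralogue of BCL11B, acts in deep-layer projection neurons and in sensory area identity. Several of these genes are also used elsewhere: Bcl11b marks striatal projection neurons, and Neurod2 is expressed in granule cells of the cerebellum.

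The promoters of 4 members are shown because 3 of these genes had large changes in the comparison and Neurod2 had none that passed the test. Each runs from 250 bases before to 50 bases after the gene's start, 5′ to 3′, as given by RefSeq on GRCm38.p6.
Tbr1, chr2:61804203-61804502, plus strand: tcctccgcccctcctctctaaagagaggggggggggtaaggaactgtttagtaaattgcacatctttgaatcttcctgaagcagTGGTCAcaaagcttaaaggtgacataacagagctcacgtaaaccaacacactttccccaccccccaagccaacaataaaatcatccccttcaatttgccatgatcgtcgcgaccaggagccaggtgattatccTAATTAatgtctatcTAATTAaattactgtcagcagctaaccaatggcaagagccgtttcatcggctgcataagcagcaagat
Fezf2, chr14:12345816-12346115, minus strand: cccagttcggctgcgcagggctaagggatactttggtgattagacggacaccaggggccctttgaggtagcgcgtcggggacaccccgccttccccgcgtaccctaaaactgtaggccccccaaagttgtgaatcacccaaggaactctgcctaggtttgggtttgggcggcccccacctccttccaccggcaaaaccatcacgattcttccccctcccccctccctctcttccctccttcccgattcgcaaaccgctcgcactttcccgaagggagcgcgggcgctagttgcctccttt
Bcl11b, chr12:108003365-108003664, minus strand: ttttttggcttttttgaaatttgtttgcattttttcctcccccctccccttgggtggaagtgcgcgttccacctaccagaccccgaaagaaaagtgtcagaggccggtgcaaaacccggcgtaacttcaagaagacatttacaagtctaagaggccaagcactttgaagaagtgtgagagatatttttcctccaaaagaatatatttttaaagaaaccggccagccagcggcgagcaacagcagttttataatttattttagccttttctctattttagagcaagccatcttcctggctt
Neurod2, chr11:98329596-98329895, minus strand: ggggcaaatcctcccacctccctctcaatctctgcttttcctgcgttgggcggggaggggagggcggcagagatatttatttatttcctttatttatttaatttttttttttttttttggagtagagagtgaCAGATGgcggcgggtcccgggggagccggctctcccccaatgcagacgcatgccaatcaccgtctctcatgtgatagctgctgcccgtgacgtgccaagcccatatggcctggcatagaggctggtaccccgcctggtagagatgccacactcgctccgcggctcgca
Capitals mark matches on either strand to 4 motifs: TAATTA, a homeodomain core, TGACCA, bound by BCL11A, CAGATG, an E-box of proneural factors, and AGGTGTGA, a T-box half-site. The marked matches do not overlap. All 8 members had a promoter in the table. The homeodomain core was present in 2 of them, Tbr1 and Emx2, against 5.29% of 32851 promoters. The BCL11A motif was present in Tbr1, against 13.6% of promoters, and the E-box in Neurod2, against 17.2%. The T-box motif was in 0 of the 8, against 1.28%. Absence says only that these letters are not in this window, and a match is not evidence of binding.

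The promoters of the members also differed from each other in base composition. GC content ran from 43.0% in Bcl11b and 46.0% in Tbr1 to 74.0% in Emx1, against a median of 52.7% over all promoters. The observed over expected ratio of CpG dinucleotides was 0.90 in Emx1, 0.84 in Emx2, 0.81 in Bcl11a, 0.74 in Fezf2, 0.70 in Neurod2, 0.65 in Bcl11b, 0.45 in Tbr1 and 0.19 in Neurod6, against a median of 0.38. Thus 7 of the 8 lay above the median and Neurod6 below it. The promoters of Tbr1 and Fezf2, the members with the largest fitted changes, lay apart in both measures.

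Of the 8 genes, 5 rose in Atm-/- brain (Tbr1, Fezf2, Bcl11a, Bcl11b and Emx1), 0 fell, Neurod2 did not pass the test, and Emx2 and Neurod6 were too dim to be tested. "Rose" and "fell" are used here of probes with a limma adjusted p under 0.05, Benjamini-Hochberg adjusted over all 22383 probes tested. Over all genes with a tested probe, 9.08% had at least 1 probe that rose. Of the 15 probes, 12 were tested, 10 rose, 0 fell and 2 did not pass. Across the array 6.98% of tested probes rose and 6.06% fell. A probe was tested if its log2 signal was above a background level of 5.64 on at least 2 of the 4 arrays. Of the 10 probes that rose, 4 were at or below that level on both Atm+/+ arrays and were tested only through their Atm-/- signal, so their count is no support in itself. Among the 7 member probes above background on all 4 arrays, 5 rose and the 2 Neurod2 probes did not pass, where 7.39% of such probes across the array rose. These 5 probes belong to only 3 genes, Fezf2, Bcl11a and Bcl11b, and probes of 1 gene are not independent. The members were also chosen with earlier results of these data known, so this count is no test of the set. In bulk RNA, fewer cells of a type and less RNA per cell cannot be told apart.

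Atm itself checked the labels: ILMN_1258206 read 7.75 and 7.84 in Atm+/+ and 5.59 and 5.27 in Atm-/-, and ILMN_2783896 6.25 and 6.67 against 5.09 and 5.14, both falling to background (limma adjusted p of 0.00224 and 0.0205). Probe ILMN_2492491 read 9.72 and 9.32 against 9.66 and 10.61 and did not pass (adjusted p = 0.308), and ILMN_2647620 was too dim to test. The position of the probes in the gene and of its disruption is not stated. The Atm+/+ pair of arrays differed by over 2-fold at 11.3% of tested probes and the Atm-/- pair at 0.737%.

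**Figure D1:**
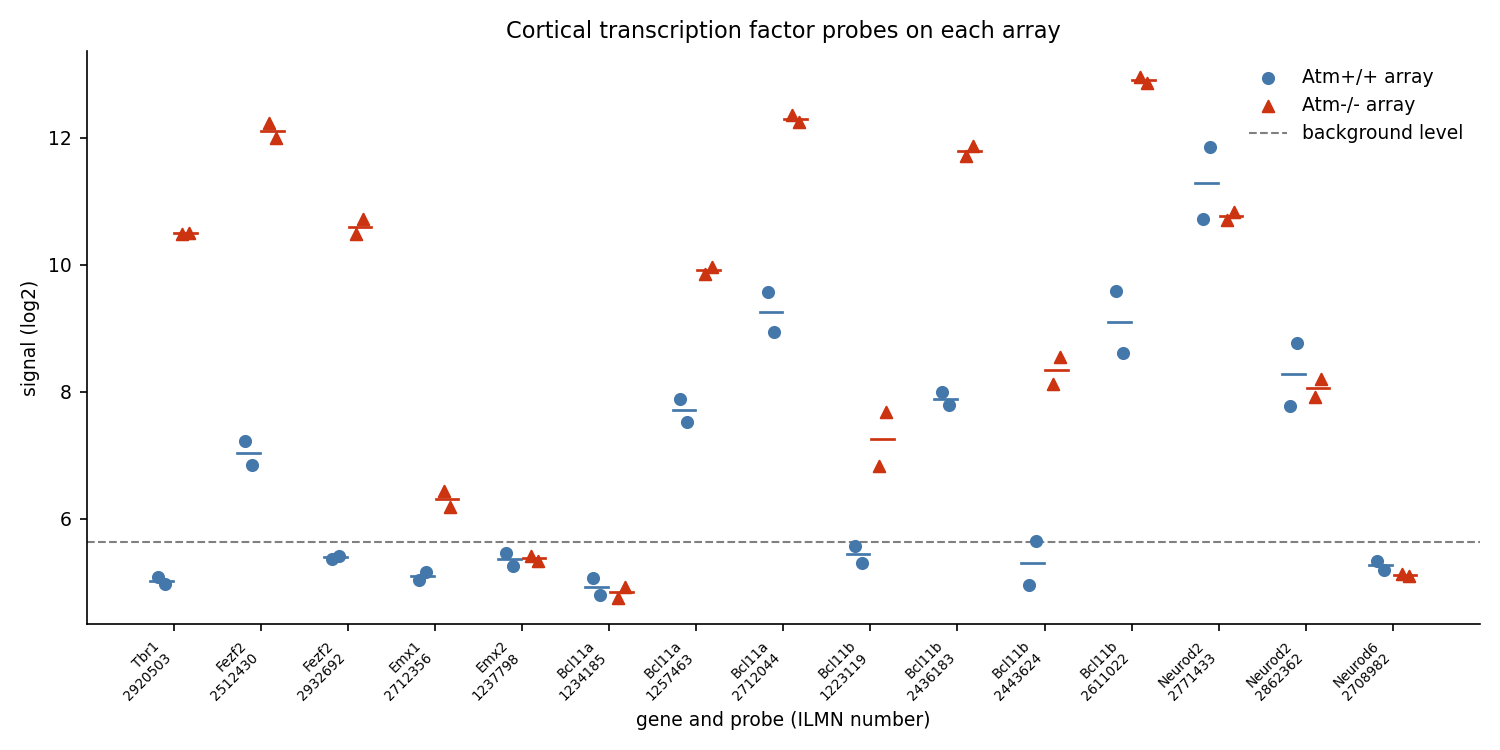
Log2 signal (vertical axis) of the 15 probes of the 8 cortical factor genes on each of the 2 Atm+/+ arrays (circles) and 2 Atm-/- arrays (triangles). Short lines are group means and the dashed line is the background level of 5.64. The Atm-/- arrays lie above the Atm+/+ arrays for the probes of Tbr1, Fezf2, Emx1 and Bcl11b and for 2 of the 3 Bcl11a probes. Across the array, both Atm-/- arrays lay above both Atm+/+ arrays at 29.4% of tested probes. Emx2, Neurod6 and the remaining Bcl11a probe lie at background in both genotypes.

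Fezf2, the selector gene of subcerebral projection neurons, was read by 2 probes. At ILMN_2512430 the log2 signal was 7.22 and 6.85 on the Atm+/+ arrays and 12.23 and 11.98 on the Atm-/- arrays. The genotypes were far apart and each pair of arrays lay close together, with all 4 values above background. The difference was 5.07 ± 0.27 (moderated SE, n = 2 per genotype), a 33.6-fold rise with a limma adjusted p of 0.000231. At ILMN_2932692 the signal was 5.37 and 5.42 in Atm+/+ and 10.48 and 10.71 in Atm-/-. Here the Atm+/+ arrays were at background, which makes the rise at least 31.1-fold, the Atm-/- mean set against the background level (fitted change 5.20 ± 0.25, adjusted p = 0.000181). Of all tested probes, 0.0491% had a larger fitted rise than ILMN_2512430.

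Tbr1, the T-box factor of layer VI, had 1 probe, ILMN_2920503. It read 5.09 and 4.97 on the Atm+/+ arrays and 10.49 and 10.49 on the Atm-/- arrays. Tbr1 was thus at background in Atm+/+ and well above it in Atm-/-, with the closest agreement between Atm-/- arrays of any member probe (SD 0.0015). It was at least 28.9-fold higher (fitted change 5.46 ± 0.25, limma adjusted p = 0.000181).

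Bcl11b, the zinc finger factor downstream of Fezf2, rose at all 4 of its probes. The brightest, ILMN_2611022, read 9.59 and 8.61 in Atm+/+ and 12.96 and 12.85 in Atm-/-, a difference of 3.81 ± 0.36 (limma adjusted p = 0.00121). ILMN_2436183 read 7.999 and 7.784 in Atm+/+ and 11.70 and 11.86 in Atm-/-, a difference of 3.89 ± 0.26 (adjusted p = 0.000477). Both gave rises of about the same size, 14.0-fold and 14.8-fold, from signals above background in each genotype. ILMN_2443624 read 4.97 and 5.64 in Atm+/+, the higher just above the background level, and 8.12 and 8.55 in Atm-/-, and rose by 3.03 ± 0.32 (adjusted p = 0.00202). The dimmest, ILMN_1223119, read 5.57 and 5.31 in Atm+/+, both at background, and 6.84 and 7.68 in Atm-/-. It was at least 3.07-fold higher (fitted change 1.82 ± 0.34, adjusted p = 0.0158), and did not pass once Atm-/- replicate 2 was left out (adjusted p = 0.182). In such a fit 1 genotype has a single array and the spread comes from the pair of the other genotype alone, so its p-values depend on which pair remains and the lone array is assumed to vary like it. The 4 probes share a target and are not replicates of the change.

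Bcl11a, its paralogue, rose at both of its tested probes. ILMN_2712044 read 9.57 and 8.94 on the Atm+/+ arrays and 12.35 and 12.25 on the Atm-/- arrays, and ILMN_1257463 read 7.89 and 7.53 against 9.85 and 9.97. In both, each Atm-/- array was above each Atm+/+ array, as at 29.4% of all tested probes, and all signals were above background. The differences were 3.05 ± 0.30 (limma adjusted p = 0.00145) and 2.20 ± 0.27 (adjusted p = 0.00323), or 8.26-fold and 4.60-fold. The remaining probe, ILMN_1234185, was at background on all 4 arrays and was not tested.

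The paralogues were compared as a ratio within each array, with the brightest probe of each gene. The log2 ratio of Bcl11a to Bcl11b was -0.02 and 0.33 on the Atm+/+ arrays and -0.61 and -0.60 on the Atm-/- arrays. The ratio was lower on both Atm-/- arrays, by 0.76 on average, but the exact two-sided permutation test could not pass whatever the values: it gave p = 0.333, the smallest that 2 arrays against 2 allow it. The difference was also no larger than that between probes of the same gene. Emx1 with Emx2 and Neurod2 with Neurod6 could not be compared, since 1 gene of each pair was not tested.

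Emx1, the homeobox gene of the dorsal telencephalon, was near background in both genotypes. Its probe ILMN_2712356 read 5.04 and 5.17 in Atm+/+ and 6.43 and 6.18 in Atm-/-. The Atm+/+ arrays were at background and the Atm-/- arrays a little above it, so the rise was at least 1.59-fold (fitted change 1.20 ± 0.26, limma adjusted p = 0.0256). Emx1 no longer passed after leaving out Atm-/- replicate 1 (adjusted p = 0.336) or replicate 2 (0.206), or when signals were taken relative to pan-neuronal genes (0.0686). Emx2 read 5.47 and 5.26 in Atm+/+ and 5.42 and 5.34 in Atm-/-, at background throughout, so no change of it could be measured.

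Neurod2, the basic helix-loop-helix factor of postmitotic excitatory neurons, did not pass the test at either of its probes. ILMN_2771433 read 10.71 and 11.84 on the Atm+/+ arrays and 10.69 and 10.83 on the Atm-/- arrays. ILMN_2862362 read 7.78 and 8.77 in Atm+/+ and 7.91 and 8.20 in Atm-/-. At both probes the signal was well above background in each genotype, Atm+/+ replicate 2 was the highest array, and the genotypes overlapped. The differences were -0.52 ± 0.39 (95% interval -1.43 to 0.39, limma adjusted p = 0.415) and -0.21 ± 0.37 (-1.07 to 0.65, adjusted p = 0.743), intervals that hold no rise of the size seen in Fezf2, Tbr1 or the bright Bcl11b probes. Both values turn on the Atm+/+ arrays. Without Atm+/+ replicate 1 the differences were -1.08 (adjusted p = 0.00473) and -0.71 (0.0417), and without Atm+/+ replicate 2 they were 0.05 (0.888) and 0.28 (0.397). In these fits the closer Atm-/- pair alone supplied the spread and up to 8320 probes passed, so the p-values do not show a fall of Neurod2. Neurod6, a related factor of the same neurons, read 5.34 and 5.20 in Atm+/+ and 5.13 and 5.09 in Atm-/- at its 1 probe, all at background.

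**Figure D2:**
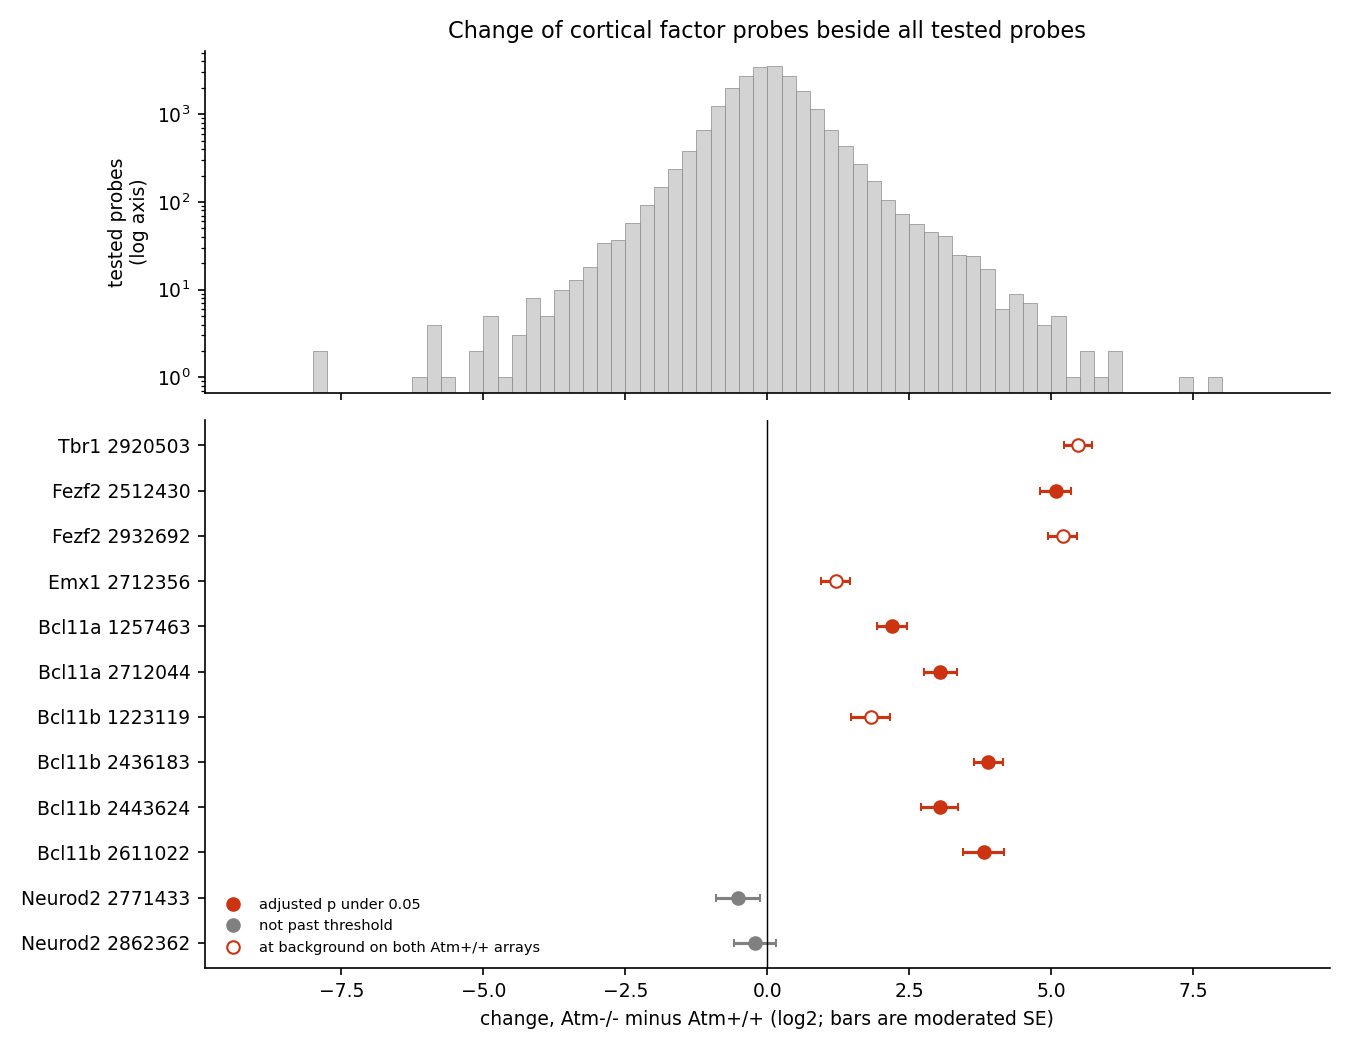
Top: number of tested probes (log axis) by change in log2 signal, Atm-/- minus Atm+/+, for all 22383 tested probes. Bottom: the change of the 12 tested cortical factor probes on the same axis, with moderated SE; open circles were at background on both Atm+/+ arrays, where only a lower bound of the rise was measured. Tbr1 and Fezf2 lie in the far right tail at 5.07 to 5.46, Bcl11a and Bcl11b between 1.82 and 3.89, Emx1 at 1.20, and Neurod2 at -0.52 and -0.21.

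The members can be set in order only where both genotypes gave a signal above background. Fezf2 ILMN_2512430 (5.07) had a 95% interval of 4.43 to 5.71. The 2 brightest Bcl11b probes (3.89 and 3.81) had intervals reaching 4.49 and 4.65, so they overlapped it. The interval of the brighter Bcl11a probe, 2.35 to 3.75, overlapped those of Bcl11b and that of the other Bcl11a probe, 1.58 to 2.82. The intervals of the Neurod2 probes, -1.43 to 0.39 and -1.07 to 0.65, lay below all of these. For Tbr1, Fezf2 ILMN_2932692, Emx1 and Bcl11b ILMN_1223119 only a lower bound of the rise was measured, and they have no place in this order. Bcl11b ILMN_2443624 was above background in Atm+/+ on replicate 2 alone and was not placed either. The differences between neighbouring members in this order were not tested. The arrays of a genotype were not equally close: over the 12 tested probes the SD ran from 0.03 to 0.80 in Atm+/+ and from 0.0015 to 0.60 in Atm-/-. With each array left out in turn, Tbr1, both Fezf2 probes, both tested Bcl11a probes and the 3 brighter Bcl11b probes passed in all 4 fits, each of which takes its spread from 1 pair of arrays.

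Other transcription factors of cortical projection neurons moved in both directions. Each gene of this and the following lists was taken at its brightest tested probe. Of 24 tested genes, 8 rose, 3 fell and 13 did not pass, with a median change of 0.05, against a median of -0.01 over all 12229 tested genes, of which 7.50% rose and 6.89% fell. Lhx2, 1 of the 8, was at background on both Atm+/+ arrays, so it was tested only through its Atm-/- signal and could not have fallen. Mef2c, a MADS-box factor of cortical and hippocampal neurons, read 9.39 and 9.14 in Atm+/+ and 12.98 and 13.07 in Atm-/- and rose by 3.76 ± 0.26 (limma adjusted p = 0.000525). A second Mef2c probe, ILMN_2887992, rose as well, while ILMN_1220270 did not pass (adjusted p = 0.657). The LIM-only gene Lmo3 rose by 3.10 and the nuclear receptor gene Nr4a2, a marker of subplate and claustrum, rose by 2.65. Zfpm2, a cofactor found in corticothalamic neurons, fell by 1.90 and Nfia fell by 1.21. Leaving out Atm-/- replicate 1 or 2 left 5 rises and 0 falls, and leaving out Atm+/+ replicate 1 gave 10 and 8.

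Set out by layer and area, these factors were mixed; the genes in this paragraph are named after their values were seen, apart from the members. In the upper layers, Cux1 differed by -1.04 ± 0.49 (limma adjusted p = 0.209) and Cux2 by -0.52 ± 0.47 (0.499). Rorb, the nuclear receptor of layer IV, differed by 1.41 ± 0.38 and narrowly missed the threshold (adjusted p = 0.0514). Among deep-layer factors, Ldb2 rose by 1.76 and Pou3f1, of subcerebral neurons, by 2.60, while Etv1 of layer V fell by 1.00. Sox5 (1.16 ± 0.42, adjusted p = 0.113), Tle4 (0.21 ± 0.25, 0.621) and Foxp2 (-0.13 ± 0.29, 0.810) did not pass. Foxp2 read 5.67 and 6.11 in Atm+/+ and 5.60 and 5.93 in Atm-/-, near background, which limits what could be measured. Among factors of area position, Sp8 rose by 1.37 ± 0.32 (adjusted p = 0.0338), from 5.72 and 5.41 in Atm+/+, near background. Nr2f2 differed by -0.51 ± 0.54 (0.575), and Pax6, like Emx2, was not tested. Nr2f2 read 5.31 and 7.07 in Atm+/+ and 5.88 and 5.48 in Atm-/-, mostly near background, which limits what could be measured. Lhx2, which specifies cortical identity in progenitors, was at background in Atm+/+ and at least 3.53-fold higher in Atm-/-, and was tested only through Atm-/-. Etv1, Nr2f2 and Cux2 are also expressed outside the cortex, the first in cerebellar granule cells.

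Genes of the earlier steps of the lineage also moved in both directions. Of 8 tested progenitor and early lineage genes, 3 rose, 1 fell and 4 did not pass, with a median of 0.73. Insm1, a zinc finger factor of basal progenitors, rose by 2.67 and Dmrta2, a factor of the dorsal midline, rose by 2.60, both from values near background. Neurod1, a relative of Neurod2 abundant in cerebellar granule cells, read 8.66 and 7.98 in Atm+/+ and 6.08 and 6.32 in Atm-/-, and fell by 2.12 ± 0.31 (limma adjusted p = 0.00661). Leaving out Atm-/- replicate 1 removed the fall, and the rises numbered 2 without either Atm-/- array and 6 without Atm+/+ replicate 2.

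Effector genes used as markers of cortical layers were compared next. Of 15 tested, 7 rose, 1 fell and 7 did not pass, with a median of 0.65. Crym, the thyroid hormone-binding protein of deep layers, was at background in Atm+/+ (4.89 and 4.88) and read 10.51 and 10.99 in Atm-/-, at least 34.6-fold higher (limma adjusted p = 0.000181). Crym and Otof were tested only through their Atm-/- signal. Rprm rose by 3.84 and the semaphorin receptor gene Plxnd1 by 2.41. Nxph4, a marker of layer VIb, went the other way and fell by 2.62 ± 0.53 (adjusted p = 0.0205). Without Atm-/- replicate 2 there were 4 rises and 0 falls, and without Atm+/+ replicate 2 there were 8 and 2.

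A list of genes reported downstream of, or acting with, these factors gave 4 rises, 1 fall and 7 that did not pass among 12 tested, with a median of 0.15. Grin2b, an NMDA receptor subunit gene regulated by TBR1 in mouse, rose by 1.81 ± 0.26 (limma adjusted p = 0.00665), its other probes being too dim to test. Lmo4 rose by 1.45 and the GTPase gene Rnd2 fell by 1.14. Slc17a7, the vesicular glutamate transporter of cortical excitatory neurons, named as the one gene that rose in the cerebellar granule cell list, read 9.73 and 11.21 in Atm+/+ and 12.26 and 12.23 in Atm-/-, a rise of 1.78 ± 0.46 near the threshold (adjusted p = 0.0467). Reln, another gene tied to TBR1, differed by -0.67 ± 0.25 (adjusted p = 0.125) and is named after its value was seen. Without Atm-/- replicate 1 or 2, 0 of these 12 genes rose and 0 fell, and without either Atm+/+ array 2 fell. Relative to pan-neuronal genes 2 rose.

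Markers of other cell types and brain regions moved in the same samples, and their part in the changes of the cortical factors was not tested. Summed signals below are sums of linear signal over the tested genes of a list. The brightest genes weigh most in them, such as Dlx1 in Atm-/- and Cbln1 in Atm+/+ in their lists. With bounds used for genes at background in 1 genotype, median changes were 1.13 for GABAergic factors and 1.86 for striatal markers. They were -3.08 for granule cell, -2.59 for Purkinje and -2.13 for hindbrain lists. Of 7 forebrain GABAergic factors, 4 rose and 0 fell, with summed signals of 443 to 471 in Atm+/+ and 1926 to 2123 in Atm-/-. Dlx1, a homeobox factor of interneurons, was at background in Atm+/+ and at least 26.6-fold higher, Dlx6 at least 2.74-fold and Dlx2 at least 2.23-fold. These 3, with Lhx8 and Nkx2-1, were at background on both Atm+/+ arrays, so 5 of the 7, the 4 that rose among them, were tested only through their Atm-/- signal and could not have fallen, and their background signal is part of the Atm+/+ sum. Without Atm-/- replicate 2 there was 1 rise. Of 13 striatal markers, a cell type that itself expresses Bcl11b, 9 rose and 1 fell, from 7052 to 10155 in Atm+/+ to 41004 to 43416 in Atm-/-. Drd1 was at least 9.73-fold higher, Rgs9 rose by 3.95 and Gng7 by 2.69, while Ebf1 fell by 1.99. A dimmer Ebf1 probe, ILMN_2707452, did not pass (limma adjusted p = 0.281). Drd1 and Pde10a were at background in Atm+/+ and tested only through Atm-/-. Without either Atm-/- array 5 rose.

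Cerebellar and hindbrain markers were lower in the arrays in which the cortical factors were higher. Of 13 granule cell markers, 10 fell and 1, Slc17a7, rose (0 rose relative to pan-neuronal genes), and summed signals went from 41197 to 49169 in Atm+/+ to 7655 to 8185 in Atm-/-. En2 fell by 5.86, Tfap2b fell by 4.19 and Zic1 fell by 3.96. Dimmer Tfap2b probes ILMN_1245527 and ILMN_2502039, at background in Atm-/-, did not pass (limma adjusted p = 0.154 and 0.114). Gabra6, En1, Zic2, Fat2 and Barhl1, at background in Atm-/-, were tested only through Atm+/+. All 6 tested genes of the Purkinje list fell, from 17191 to 17989 to 1754 to 1936, led by Pcp2 at least 152-fold, Lhx1 at least 39.6-fold and Gdf10, which fell by 2.83. Gdf10 is known in the cerebellum from Bergmann glia rather than Purkinje cells, and it stayed above background in Atm-/- (9.23 and 9.25). Pcp2, Lhx1, Lhx5 and Ppp1r17 were at background in Atm-/- and tested only through Atm+/+. Of 9 hindbrain and brainstem markers, 6 fell and 0 rose, from 16296 to 18911 to 3263 to 3615, with Hoxb5 at least 36.3-fold, Hoxa5 at least 30.8-fold and Slc6a2 at least 7.79-fold lower, these 3 being at background in Atm-/- and tested only through Atm+/+. The labels name the tissue as brain alone, so genotype and the make-up of the tissue cannot be told apart in these 4 arrays.

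Genes common to most neurons were also compared. Of 17 tested pan-neuronal genes, 1 rose (5.88%, near the 7.50% of all tested genes) and 0 fell (6.89% of all tested genes). Their median change was 0.23, with summed signals of 150474 to 170171 in Atm+/+ and 233470 to 239102 in Atm-/-. Syt1, the synaptic vesicle calcium sensor and the brightest of the 17 in Atm-/-, rose by 1.82. Its dimmer probe ILMN_1226085 did not pass (limma adjusted p = 0.0612). Rbfox3 (0.84 ± 0.27, limma adjusted p = 0.0892) and Vamp2 (1.43 ± 0.49, 0.0975) did not pass at their brightest probes. Rbfox3 ILMN_3110132 rose (adjusted p = 0.0286). Without either Atm+/+ array 4 of the 17 rose, and without Atm+/+ replicate 1 3 fell. Taking each array relative to the mean of these genes lowered every change by 0.29. Tbr1 then stood at 5.18, the Fezf2 probes at 4.78 and 4.91, and the 2 brightest Bcl11b probes at 3.52 and 3.60, and 9 of the 10 rises kept their call, Emx1 being the exception. Of 14 glial and vascular genes, 3 fell and 0 rose, with a median change of only -0.20. Their summed signals were 137096 to 137218 in Atm+/+ and 84845 to 85076 in Atm-/-. The brightest gene in this sum, Mbp, read 16.01 and 16.03 against 15.45 and 15.49 and did not pass (limma adjusted p = 0.188). Mobp probes ILMN_1223628 and ILMN_3024681 did not pass (limma adjusted p = 0.387 and 0.171). Among these 14 genes at their brightest probes, Gfap fell by 2.19, Aqp4 fell by 1.93 and Mobp fell by 1.21. Without Atm-/- replicate 1, 0 of these fell, and without Atm+/+ replicate 2, 5 fell.

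**Figure D3:**
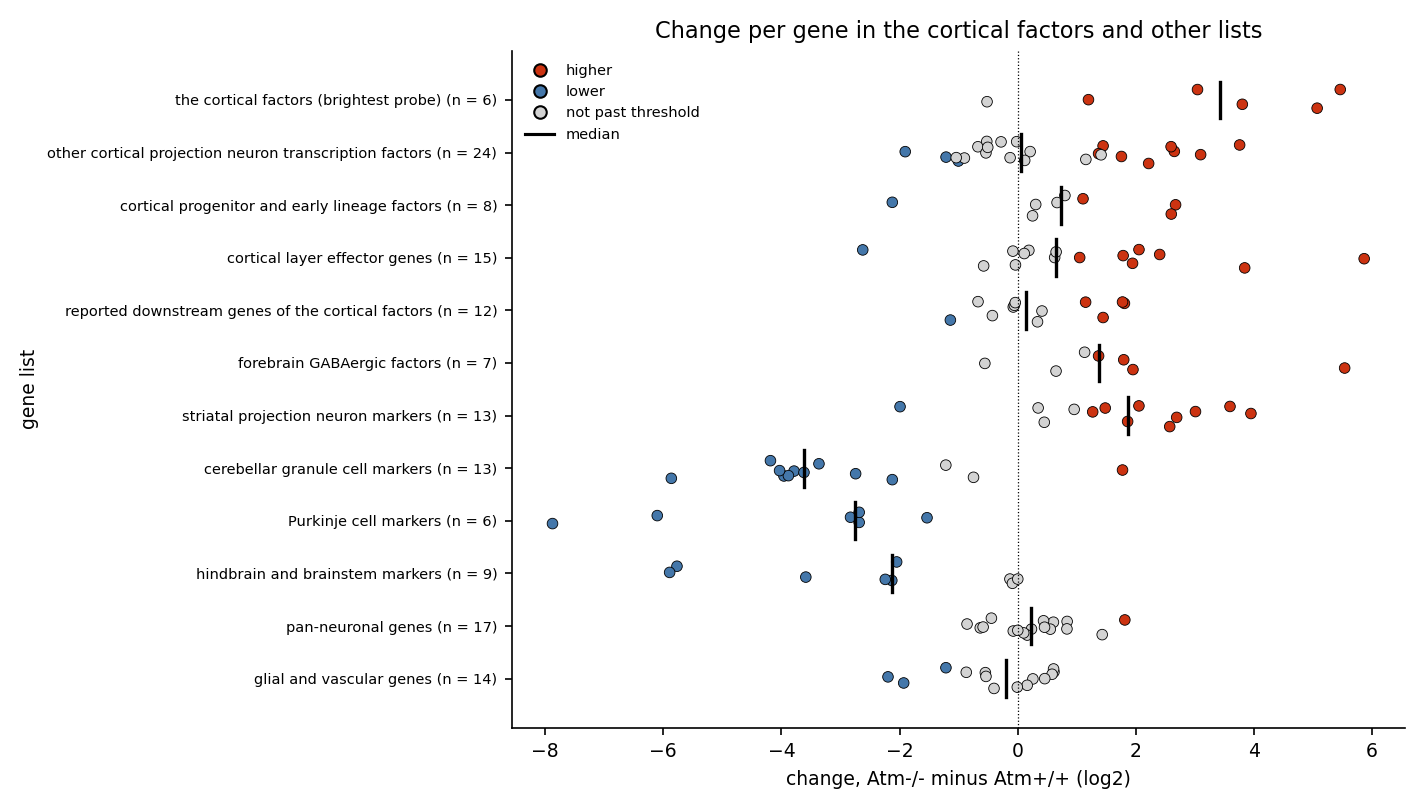
Change in log2 signal, Atm-/- minus Atm+/+, for each tested gene (point, brightest probe) in the 6 tested cortical factors and 11 other gene lists, coloured by whether it rose, fell or did not pass. Vertical bars are medians. The GABAergic and striatal lists lie mostly to the right and the cerebellar and hindbrain lists mostly to the left. The other cortical factors spread over both sides around a median of 0.05, and the progenitor, layer effector and downstream lists also hold genes on both sides.

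The genes whose pattern was nearest to the average of the cortical factors were Cacng3, Slc26a4, Kcnip2, Tmem191c and Hpca. Likeness was the Euclidean distance over the 4 arrays between log2 profiles centred on their own mean and the average profile of the 6 tested members, and it ran from 0.07 to 0.16. With 4 arrays such a distance mostly reflects the size of the genotype difference. Cacng3, an auxiliary subunit gene of AMPA receptors, read 7.70 and 7.56 in Atm+/+ and 10.72 and 10.69 in Atm-/-. Hpca, the hippocampal calcium sensor hippocalcin, read 11.34 and 11.24 against 14.16 and 14.20, and Kcnip2, a subunit gene of A-type potassium channels, 5.97 and 5.89 against 9.02 and 8.78.

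**Figure D4:**
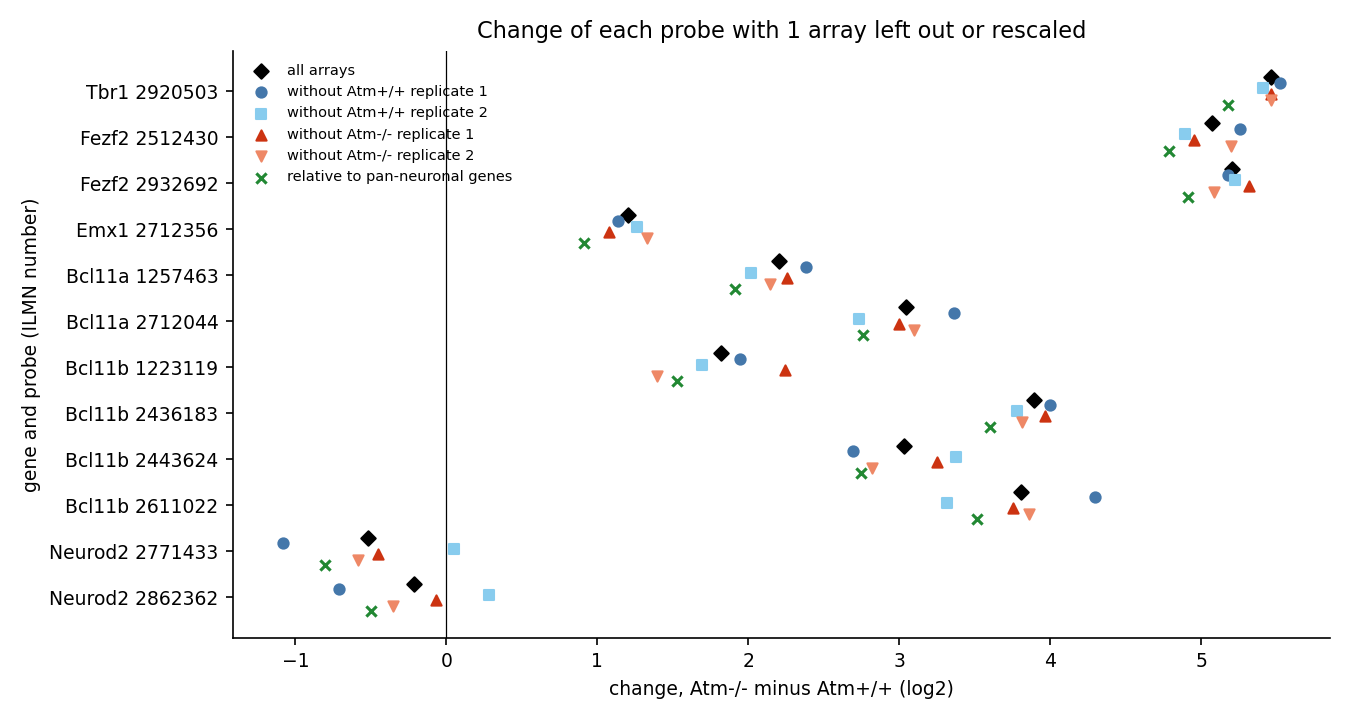
Change in log2 signal of the 12 tested cortical factor probes, Atm-/- minus Atm+/+, with all arrays, with each array left out in turn, and relative to the mean of 17 pan-neuronal genes. Values of Tbr1, Fezf2, Bcl11a, Bcl11b and Emx1 stay to the right of 0, and those of Neurod2 lie on both sides of it, from -1.08 to 0.28.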

How the data were processed

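Values were the log2 signals of the authors' deposited table of processed values, 1 column per sample. How they were background-treated and normalized is not given in the sources used here. After sorting, the arrays matched within 0.0792 at each rank, which is the pattern of quantile normalization, so a shift of most genes 1 way cannot be seen. Another table holds 8 columns of per-sample values whose names match no label, and it was not used, so background correction and neqc from raw signals were not run. The background level of 5.64 lies 3 SD (0.195) above the mode (5.05) of all values, and 47.0% to 47.1% of probes per array were above it. Symbols came from the platform annotation. Probes with several or no symbol were not named.

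Genotypes were compared in R 4.3.3 using limma 3.58.1 (lmFit, eBayes), with 2 residual and 5.22 prior degrees of freedom, on all 4 arrays without covariates. Intervals are 95%. The fit was also run on simulated data with equal spread in both genotypes. That run cannot speak to the unequal spread of these arrays. A probe at background in 1 genotype is given as at least N-fold, the brighter mean over the background level. The number of arrays limits the precision. Alternatives were the background level, the filter, an intensity trend, array weights, scaling, a replicate block and leaving out each array. With 1 array left out, the spread comes from the pair of the other genotype alone. Named genes are all member and Atm probes, the 3 genes of smallest p per list, up to 2 that passed against a list's direction, and the 5 nearest genes. Other marker genes at background in 1 genotype, and Cbln1 and Mbp, were named after their values were seen. The members and lists were chosen with earlier results of these data known. Some listed genes were not analysed here.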

Additional observations from a re-analysis of the deposited data

How the results depend on the processing

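Of 151 refits of single member probes, 143 kept their direction and side of the threshold. The calls that were lost were those of Emx1 and of Bcl11b ILMN_1223119, and the changes of the 2 Neurod2 probes ran from -1.08 to 0.049 and from -0.71 to 0.28 when 1 array was left out, against -0.52 and -0.21 with all arrays. Member probes that rose numbered 8 to 10 and member genes 4 to 5 when 1 array was left out, and 9 and 4 relative to pan-neuronal genes. With the filter at all 4 arrays above background they were 5 and 3, because fewer member probes were tested. All tested probes past the threshold numbered 2919, and 666 to 8320 when 1 array was left out. Those fits take the spread from 1 genotype's pair, the closer Atm-/- pair or the wider Atm+/+ pair, so calls kept or gained in them do not show stability. The replicate numbers did not pair the samples (correlation of deviations 0.06 between same-numbered arrays). A replicate block raised the count over all probes to 4574 and changed no call of a member. Without a filter 2360 probes passed. Signal near background limits Emx1, Emx2 and Neurod6, and 4 arrays limit all values.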
